A study of Mus musculus with 18 samples.

Results

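Retinoic acid is a small lipid made from vitamin A, and the genes that make it, carry it, break it down and read it were followed through 4 RNA-seq comparisons of newborn mouse brain. The set holds 9 genes out of 19653 that reached a mean of 0.5 FPKM in at least 1 of the 4 expression tables, and it was chosen by the FPKM values of the cortical libraries, where Crabp2 showed the clearest rise in mutants. FPKM is a count of sequenced fragments scaled to the length of the transcript and to the size of the library. Each gene was found by its name, also where a table joins several gene names in a single entry, and the entry with the highest mean was used. Since values from cortex chose the set, cortical values of all 9 genes are given as a description, with no test.

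The study asked what the chromatin factor KDM2B does in the developing hippocampus. KDM2B binds unmethylated CpG dinucleotides through its CxxC zinc finger and belongs to a Polycomb complex that also holds Ring1B, the product of Rnf2. All libraries came from mice at postnatal day 0. Kdm2b cKO libraries carried the genotype Kdm2bEmx1-delta-CxxC, in which the exon for the CxxC zinc finger is removed by Emx1-Cre, and Rnf2 cKO libraries carried Rnf2Emx1-cKO. Emx1-Cre is active in the lineage of the dorsal telencephalon, so meninges, vessels, blood and neurons that migrate in from elsewhere kept the gene. Controls were Kdm2bfl/+ or Kdm2bfl/fl, or Rnf2fl/+ or Rnf2fl/fl, and the labels do not separate those genotypes. There were 3 control and 3 Kdm2b cKO hippocampi, 2 and 2 neurosphere cultures, 2 and 2 Kdm2b cortices, and 2 and 2 Rnf2 hippocampi. Neurospheres are floating balls of neural progenitors, here grown from newborn hippocampi with FGF2, EGF and the N2 and B27 supplements. B27 is sold with and without vitamin A, and the sources used here do not say which was in the medium. Nothing in the labels says how many animals a library holds, so the spread between libraries may in part be technical.

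Some facts about the libraries touch the values. Fragments recovered from FPKM and gene length numbered 18480515 to 21905224 in the cortical libraries and 14654894 to 16334420 in the Rnf2 libraries. Depth is unknown in the other tables. Neurosphere control library 1 stood apart, since its FPKM summed to 855276 against 452580 to 522964 in the other neurosphere libraries and 29.3% of it lay in entries with no gene name. Kdm2b itself read 28.1 to 31.9 FPKM in control and 26.2 to 28.2 FPKM in cKO hippocampi, which does not check the labels because a value over the whole gene is mostly made outside the deleted exon. Rnf2 read 30.8 and 32.3 FPKM in control and 27.8 and 28.5 FPKM in Rnf2 cKO hippocampi. The 8 markers of hippocampal neurons summed to between 334 and 439 FPKM in hippocampi and between 643 and 711 FPKM in cortices, so that their sum does not set hippocampus apart from cortex. The 8 progenitor markers to between 3710 and 7007 FPKM in neurospheres.

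Cells make retinoic acid in steps. Retinol dehydrogenases first turn retinol into retinaldehyde, and the enzymes encoded by Aldh1a1, Aldh1a2 and Aldh1a3 then turn that into retinoic acid. The binding proteins encoded by Crabp1 and Crabp2 hold it in the cytoplasm, CYP26B1 oxidises it for removal, and the receptors encoded by Rara and Rarb bind DNA as partners of RXRA and switch target genes once the ligand is bound. In the forebrain around birth, the meninges are a well known source of retinoic acid, through Aldh1a2.

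RefSeq start sites of 7 of the 9 genes could be matched, with 12 start sites among them. 3 stretches are shown because they carry the features named below, each as the 250 bases upstream of a start, 5′ to 3′ on the strand of the gene, from RefSeq on GRCm38.p6. In those of Aldh1a2 (chr9:71215539-71215788, plus strand) and Crabp1 (chr9:54764498-54764747, plus strand) capitals mark CpG dinucleotides, which the CxxC domain of KDM2B binds. In that of Rarb (chr14:16575477-16575726, minus strand) capitals mark a pair of half-sites of the kind that retinoic acid receptors bind.
Aldh1a2: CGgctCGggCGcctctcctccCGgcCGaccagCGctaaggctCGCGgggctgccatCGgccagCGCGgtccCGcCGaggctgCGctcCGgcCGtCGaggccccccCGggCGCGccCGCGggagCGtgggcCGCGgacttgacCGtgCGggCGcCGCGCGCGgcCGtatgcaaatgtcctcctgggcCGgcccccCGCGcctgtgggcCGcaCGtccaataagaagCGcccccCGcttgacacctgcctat
Crabp1: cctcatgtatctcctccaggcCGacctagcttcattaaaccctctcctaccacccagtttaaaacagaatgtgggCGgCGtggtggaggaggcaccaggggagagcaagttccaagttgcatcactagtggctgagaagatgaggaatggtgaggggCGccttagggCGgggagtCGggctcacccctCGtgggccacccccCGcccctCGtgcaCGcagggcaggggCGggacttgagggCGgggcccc
Rarb: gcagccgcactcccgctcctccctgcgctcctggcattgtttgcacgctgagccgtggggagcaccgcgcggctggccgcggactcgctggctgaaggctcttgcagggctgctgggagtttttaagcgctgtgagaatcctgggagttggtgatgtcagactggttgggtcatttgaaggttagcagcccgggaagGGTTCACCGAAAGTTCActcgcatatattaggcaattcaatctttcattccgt
The Aldh1a2 stretch was dense in CpG, with 40 of them, against 12 in the Crabp1 stretch. Over the full windows of 300 bases, which run 50 bases past the start, Aldh1a2 held 50 CpG, a density reached by 0.855% of 32851 mouse promoter windows. The Crabp1 and Rarb windows held 17 each, reached by 31.4% of windows, and the median over all windows was 7. A start of Rxra held 55 and that of Cyp26b1 held 9. The half-site searched was AGGTCA, or its forms GGGTCA with the first letter changed, AGTTCA with an inner letter changed and GGTTCA with both changed, on either strand, and paired in the same direction with 1, 2 or 5 bases between them. Among the 12 windows, that of Rarb was the only one with such a pair, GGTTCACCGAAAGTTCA, with 5 bases between the half-sites and lying 53 to 37 bases upstream of the start. A pair with any of the spacings searched occurred in 0.588% of all windows, and a pair spaced by 5 bases in 0.0974%. This is a match of letters, not a measurement of binding.

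The plot of values by library sets out all 9 genes. Cyp26b1 and Crabp1 were far higher in hippocampi than in neurospheres or cortex, Aldh1a3 and Rarb were highest in neurospheres, and Rxra lay above 2.5 FPKM in every library. The tables were normalised separately, so levels were not tested between tables.

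**Figure D1:**
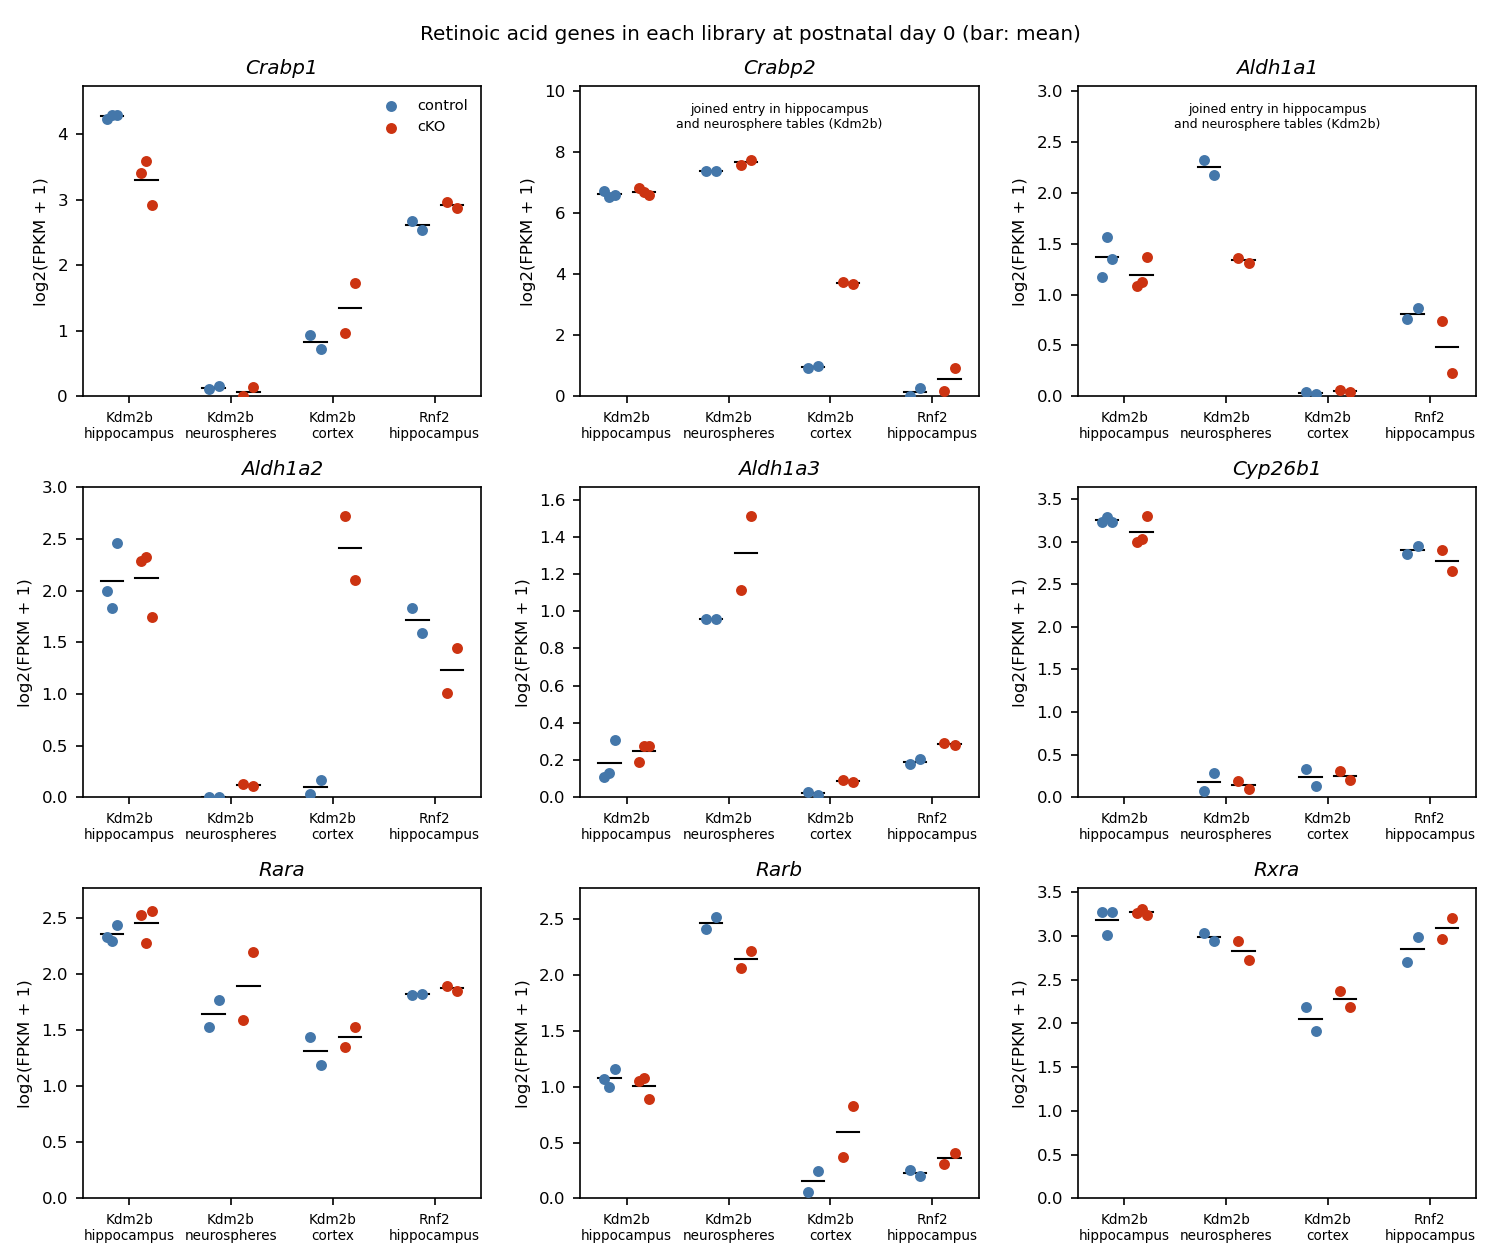
Levels of the 9 genes as log2(FPKM + 1) on the vertical axis, for control (blue) and cKO (red) libraries of the 4 comparisons; each point is a library and each bar a group mean. Crabp1 is lower in all 3 Kdm2b cKO hippocampi, and Crabp2 and Aldh1a2 are higher in both cKO cortices; the hippocampal and neurosphere values shown for Crabp2 and Aldh1a1 are those of joined entries.

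Crabp1, which encodes a cytoplasmic protein that binds retinoic acid, fell in Kdm2b cKO hippocampi. Its gene lies at chr9:54764748-54773110 on the plus strand of GRCm38. The 3 control hippocampi read 17.8, 18.7 and 18.6 FPKM, and the 3 cKO hippocampi read 9.59, 11.1 and 6.60 FPKM. All cKO libraries lay below all controls, at about 0.495 of the control mean (18.4 ± 0.473 against 9.09 ± 2.28 FPKM, SD, n = 3 each). On the log2(FPKM + 1) scale the difference was -0.97 (SE 0.14, 95% interval -1.29 to -0.64), with an adjusted p of 0.0063 in the limma fit over 13446 genes. Crabp1 was the only member called of the 8 that passed the filter of 0.5 FPKM. Genes were called at a difference above 0.4 in size with an unadjusted p under 0.05, the thresholds of the study, and 6.14% of all genes tested passed them here. Groups did not overlap for 1 of the 8 members, Crabp1, and for 29.2% of all genes. The call held when any of the 6 libraries was left out.

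Among the markers of cells that the hippocampal samples could hold, 5 of 8 progenitor markers rose in the same libraries, Neurog2, Eomes, Pax6, Nes and Vim, with a median difference over the 8 of 0.51 against 0.01 over all genes tested. Astrocyte markers moved both ways, with Aqp4 and S100b called lower, 4 of the 6 lower in all cKO libraries and a median of -0.23. Slc1a3 was higher in all cKO libraries without being called, and Gfap was higher on average with overlapping groups. The astrocyte list summed to 243, 230 and 248 FPKM in controls and 237, 267 and 318 FPKM in cKO. The 6 oligodendrocyte lineage markers summed to 63.3 to 64.6 FPKM in controls and 53.4 to 56.7 FPKM in cKO, and none of them was called. The 8 interneuron markers summed to 263, 243 and 264 FPKM in controls and 239, 233 and 308 FPKM in cKO hippocampi, and none of them was called. The 6 thalamic markers summed to 37.6 to 41.3 FPKM in controls and 50.4 to 54.6 FPKM in cKO. Of them 5 were higher in all cKO libraries, and Tcf7l2 and Lhx9 were called higher. Of the 6 markers of Cajal-Retzius cells 4 were higher in all cKO libraries, and Lhx1 was called higher. Fibcd1, of the 8 hippocampal neuron markers, and Penk, of the 10 markers of striatum and lateral ganglionic eminence, were called lower. The part of such shifts in the Crabp1 value was not tested, and in whole tissue fewer cells of a type and less RNA per cell cannot be told apart.

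The direction was the opposite in Rnf2 hippocampi, without passing the test. The Rnf2 controls read 5.42 and 4.81 FPKM, and the Rnf2 cKO hippocampi read 6.79 and 6.32 FPKM. Both cKO libraries lay above both controls, but the difference of 0.31 (SE 0.13) was under the fold threshold, with an adjusted p of 0.71 by limma. The effects of both deletions on Crabp1 differed by 1.27 (SE 0.22, Rnf2 minus Kdm2b, adjusted p = 0.024 in the limma interaction over 11266 genes), the only one of 5 members compared to pass at an adjusted p under 0.05. Of all genes compared, 0.683% passed. The difference stayed between 1.08 and 1.42 under 16 alternatives, but its adjusted p rose to between 0.060 and 0.11 when any of 5 libraries was left out, which were the 3 Kdm2b control hippocampi and both Rnf2 cKO hippocampi. In the cortex Crabp1 was low, at 0.905 and 0.645 FPKM in controls and 0.952 and 2.33 FPKM in cKO. Those came from 16 and 11 against 15 and 35 fragments, and the difference of 0.53 was 0.14 without cKO cortex library 2. The 10 markers of striatum and lateral ganglionic eminence summed to 26.9 and 30.1 FPKM in control cortices and 36.4 and 45.8 FPKM in cKO cortices, highest in that same library. Of the 10, 4 were more than 0.4 higher. Both cKO cortices lay above both controls for 2 of the 10 and below both for 1, while groups did not overlap for 44.8% of all genes. Their part in the cortical values was not tested. In neurospheres it read at most 0.112 FPKM in any library and was not tested.

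Crabp2, which carries retinoic acid to its nuclear receptors, was the gene that led to the choice of this set. It lies at chr3:87948666-87953376 on the plus strand. The control cortices read 0.892 and 0.996 FPKM, from 26 and 28 fragments, and the cKO cortices read 12.4 and 11.8 FPKM, from 323 and 292 fragments. Summed over libraries and scaled to depth, cKO cortices held 12.9 times as many Crabp2 fragments as controls, with an exact 95% interval of 9.73 to 17.3 that covers counting error only. In the Rnf2 table Crabp2 was near its floor, with 0 and 4 fragments in controls and 3 and 19 in cKO, which is at most 0.888 FPKM. It did not pass the filter there.

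No value for Crabp2 by itself could be read in Kdm2b hippocampi and neurospheres. Those tables list it only in an entry joined with Hdgf, Isg20l2 and Mrpl24. Where the 4 genes are listed apart, Crabp2 made up 0.742% and 0.875% of their summed FPKM in control cortices, 9.53% and 8.97% in cKO cortices, and between 0% and 1.06% in the Rnf2 table. Hdgf, a growth factor gene, was the most abundant of the 4 in all of those libraries.

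**Figure D2:**
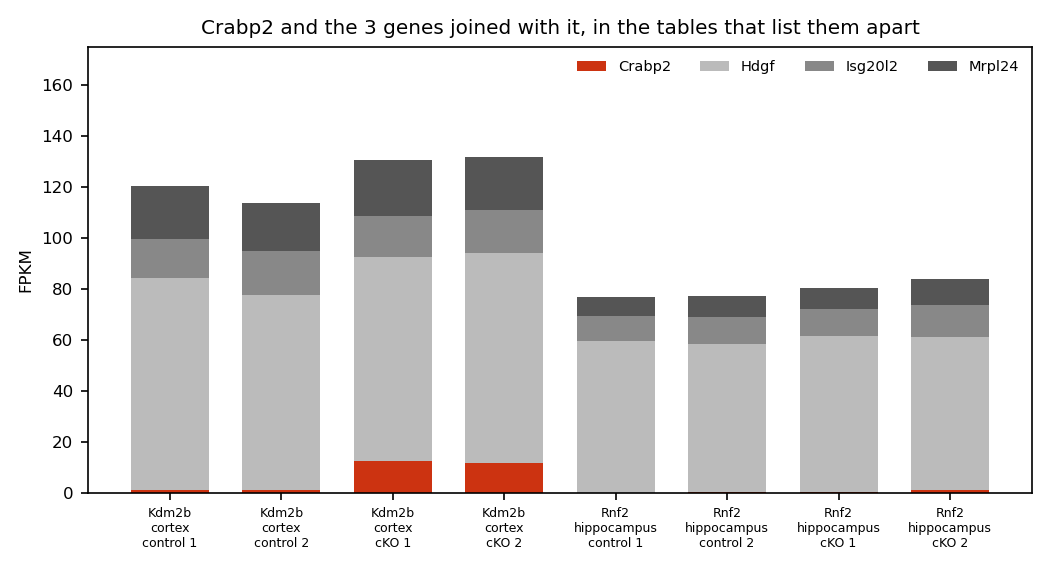
Stacked FPKM (vertical axis, from 0) of Crabp2, Hdgf, Isg20l2 and Mrpl24 in each library (horizontal axis) of the cortical and Rnf2 tables. Crabp2 (red) fills 8.97% to 9.53% of the bars of both Kdm2b cKO cortices and at most 1.06% of any other bar.

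The joined entry read 104, 91.7 and 96.1 FPKM in control and 112, 102 and 96.4 FPKM in cKO hippocampi, with overlapping groups and a difference of 0.09 (95% interval -0.06 to 0.24). In neurospheres it read 164 and 167 FPKM in controls and 190 and 214 FPKM in cKO, a difference of 0.28 that was under the fold threshold (adjusted p = 0.0997 by limma).

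Over all 18 libraries, each set against the control mean of its table, the genes whose pattern was most like that of the Crabp2 entries were S100a11 (r = 0.955), Eno2 (r = 0.92) and Nbl1 (r = 0.895), among 9605 genes. In 10 of those libraries the entry was the joined one. Over the 8 libraries that list Crabp2 by itself, a choice made after the data were seen, they were Bmp7 (r = 0.994), Akap12 (r = 0.991) and Foxc1 (r = 0.989). The points share tables and controls, and 2 cortical libraries set most of each correlation. Foxc1, a transcription factor of the meninges, is one of the meningeal markers described below, but it also read 4.69 and 6.18 FPKM in control neurospheres. Bmp7 read 3.46, 3.02 and 4.14 FPKM in control and 6.59, 8.25 and 5.42 FPKM in Kdm2b cKO hippocampi. For Akap12 and Foxc1 the groups overlapped in those hippocampi.

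Aldh1a2, the retinaldehyde dehydrogenase of the meninges, was also higher in cKO cortex. It lies at chr9:71215789-71296243 on the plus strand. The control cortices held 1 and 6 fragments, or 0.02 and 0.125 FPKM, and the cKO cortices held 249 and 139 fragments, or 5.60 and 3.28 FPKM. The ratio scaled to depth was 62.6, with an exact 95% interval of 30.1 to 157 for counting error only, a wide interval because the controls held 7 fragments in all. Together with Crabp1 and Crabp2 it was 1 of 3 members, of the 5 above the filter, that lay more than 0.4 higher in cKO cortex. Its control mean of 0.0724 FPKM was under that filter, so Aldh1a2 passed only through the cKO libraries. Of all 15691 genes, 9.8% lay past that fold in either direction and 6.21% lay higher. Groups did not overlap for 4 of the 5, and for 44.8% of all genes. Since this contrast chose the genes, nothing is read from those counts.

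The 12 meningeal markers moved in the same 2 libraries. They summed to 10.2 and 12.6 FPKM in control cortices and 59.1 and 42.8 FPKM in cKO cortices. Both cKO libraries lay above both controls for all 12 of them, and 11 of the 12 were higher by more than 0.4, counted without the filter on low values. Col1a1, a collagen of meningeal fibroblasts, read 0.104 and 0.323 FPKM in controls and 5.29 and 2.43 FPKM in cKO cortices, and Slc6a13, a transporter of the same cells, read 0 and 0.113 against 3.66 and 2.91 FPKM. At most 2 of the 12 were at 0 in a control library and none was in a cKO library. Vessel markers summed to 46.8 and 47.4 FPKM against 65.6 and 66.1 FPKM, and blood markers to 435 and 454 against 712 and 624 FPKM. The part of meningeal tissue in the values of Crabp2 and Aldh1a2 was not tested.

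In Kdm2b hippocampi no difference in Aldh1a2 was called. Controls read 2.98, 2.56 and 4.52 FPKM and cKO hippocampi read 3.88, 4.0 and 2.36 FPKM, with overlapping groups and a difference of 0.02 (95% interval -0.42 to 0.46). In the same order, the meningeal markers summed to 78.3, 62.5 and 72.7 FPKM in controls and 76.6, 72.0 and 48.8 FPKM in cKO hippocampi. The library lowest in Aldh1a2 was lowest in that sum, but the library highest in Aldh1a2 was not the highest. The part of meningeal tissue in these values was not tested. In the Rnf2 table controls read 2.57 and 2.02 FPKM and cKO hippocampi read 1.02 and 1.72 FPKM. Both cKO libraries lay lower, but the difference of -0.49 (95% interval -1.02 to 0.05) did not pass the test (adjusted p = 0.71 by limma). There the meningeal markers summed to 54.5 and 52.2 FPKM in controls and 27.8 and 38.8 FPKM in cKO, and 5 of the 10 above the filter were called lower at an unadjusted p, none at an adjusted p. Without Rnf2 cKO library 2, Aldh1a2 was called lower at an unadjusted p of 0.044 by limma, with a difference of -0.70, in a fit that takes the lone cKO library to vary like the control pair. In neurospheres, which hold few meningeal markers (5.93 to 8.30 FPKM in sum), Aldh1a2 was listed at 0 in both controls and at 0.0932 and 0.0817 FPKM in cKO, below the filter.

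**Figure D3:**
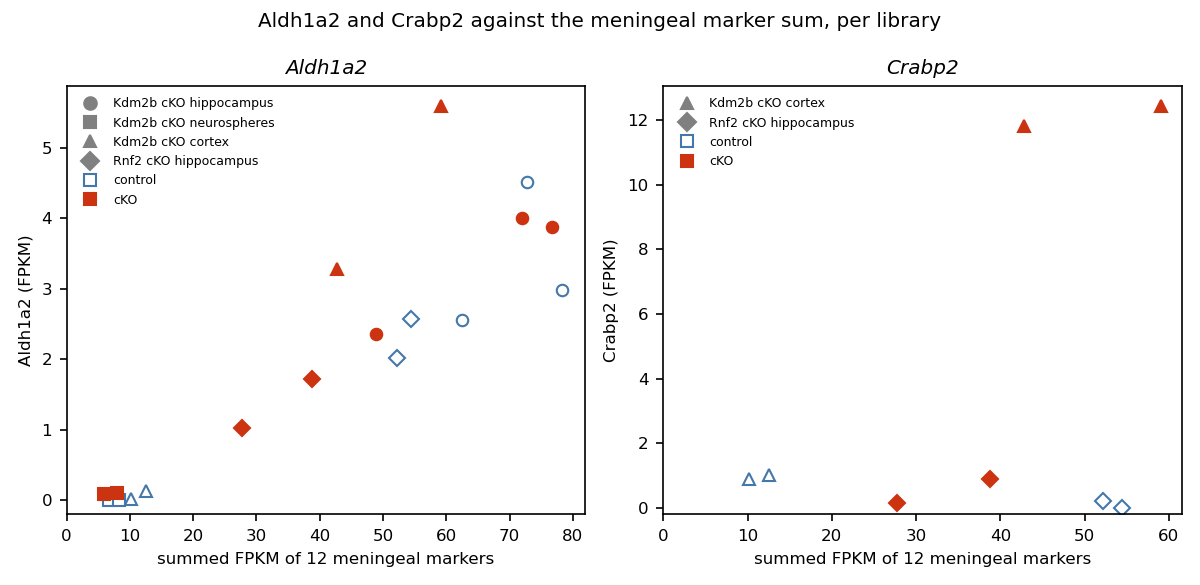
FPKM of Aldh1a2 (left) and Crabp2 (right) on the vertical axes against the summed FPKM of 12 meningeal markers on the horizontal axes; each point is a library, with control libraries open and cKO libraries filled, and marker shapes for the comparisons. The 2 cKO cortices lie at 42.8 and 59.1 FPKM of markers, apart from the control cortices at 10.2 and 12.6. Crabp2 is shown only for the tables that list it by itself, where Rnf2 controls with 52.2 and 54.5 FPKM of markers read at most 0.194 FPKM of Crabp2. The tables were normalised separately, so levels are not compared between them.

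Rnf2 control hippocampi had meningeal sums of 54.5 and 52.2 FPKM, within the range of the cKO cortices. They read 2.57 and 2.02 FPKM of Aldh1a2 and 0 and 0.194 FPKM of Crabp2. Cortical and hippocampal tables were normalised separately and come from different tissues, so this is a description. The part of meningeal tissue in these values was not tested.

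Aldh1a1, a second retinaldehyde dehydrogenase, fell in cKO neurospheres. In that table and the Kdm2b hippocampal table it is joined with E030003E18Rik, a noncoding gene at the same locus, and the values are of both together. The gene lies at chr19:20492715-20643462 on the plus strand. The control neurospheres read 4.01 and 3.53 FPKM and the cKO neurospheres read 1.57 and 1.48 FPKM. Both cKO libraries lay below both controls, at about 0.405 of the control mean (3.77 ± 0.339 against 1.53 ± 0.0629 FPKM, SD, n = 2 each). The difference was -0.91 (SE 0.14, 95% interval -1.25 to -0.58), with an adjusted p of 0.0082 by limma over 12227 genes. It was the only member called of the 6 that passed the filter, in a comparison where 24.6% of all genes were called. Of all genes called there 46.2% were higher in cKO, and 60.2% with every library brought to an equal FPKM sum. Without control library 1, the one that stood apart, the difference was -0.84 (unadjusted p = 0.0093 and adjusted p = 0.096 by limma), and without control library 2 its adjusted p was 0.068. Both of these fits take the lone control library to vary like the cKO pair.

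Astrocyte markers fell in the same cultures. Of the 6 on the list 5 were called lower, Gja1, S100b, Aldh1l1, Gfap and Aqp4, and the list summed to 643 and 642 FPKM in controls and 427 and 394 FPKM in cKO. Of the 6 oligodendrocyte lineage markers 4 were called lower and 1 was higher in both cKO libraries. That list summed to 2497 and 2415 FPKM in controls and 2516 and 2454 FPKM in cKO. Of the 7 progenitor markers tested 2 were called higher, and the 8 summed to 4122 and 3710 FPKM in controls and 5144 and 7007 FPKM in cKO. The part of these cell types in the value of Aldh1a1 was not tested.

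In hippocampi the Aldh1a1 entry read 1.26, 1.96 and 1.55 FPKM in controls and 1.13, 1.19 and 1.58 FPKM in cKO. The groups overlapped, and the difference was -0.17 (95% interval -0.48 to 0.14). The effects in neurospheres and hippocampi differed by -0.74 (SE 0.20, neurospheres minus hippocampi, adjusted p = 0.019 in the limma interaction over 11075 genes). This was the only one of 5 members compared to pass, in an interaction where 26.9% of all genes passed. With every library brought to an equal FPKM sum its adjusted p was 0.075, and without neurosphere control library 1 it was 0.076. In the Rnf2 table, which lists Aldh1a1 by itself, controls read 0.691 and 0.821 FPKM and cKO hippocampi read 0.675 and 0.175 FPKM, with a difference of -0.32 (95% interval -0.97 to 0.32), or -0.07 without cKO library 2. In the cortex it was under 0.05 FPKM in all 4 libraries.

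Aldh1a3, the third enzyme of this kind, was measured best in neurospheres. There the controls read 0.94 FPKM each and the cKO libraries read 1.17 and 1.85 FPKM. Both cKO libraries lay above the controls, but the difference of 0.36 (95% interval -0.12 to 0.84) did not pass the test (adjusted p = 0.23 by limma). In the other tables it read at most 0.238 FPKM and was not tested. As a level per gene length, the Aldh1a1 entry lay above Aldh1a3 in both control neurospheres, and in cKO neurospheres the values of both overlapped.

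Cyp26b1, which clears retinoic acid, was one of the more abundant members in hippocampi. It read 8.41, 8.80 and 8.37 FPKM in Kdm2b controls and 6.99, 7.16 and 8.89 FPKM in cKO. A pair of the cKO libraries lay below all controls and the third above them, and the difference was -0.14 (95% interval -0.35 to 0.07). In the Rnf2 table it read 6.23 and 6.69 FPKM in controls and 6.46 and 5.31 FPKM in cKO, a difference of -0.12 (95% interval -0.47 to 0.23). Both intervals leave out a change of 0.5 in either direction. Neurospheres and cortices read at most 0.263 FPKM.

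No receptor gene was called in any tested comparison. Values of Rarg, a receptor outside the 9 genes that came near the thresholds, are given further below. Rxra, the common partner, read 8.65, 7.09 and 8.68 FPKM in control and 8.63, 8.92 and 8.42 FPKM in Kdm2b cKO hippocampi, with a difference of 0.08 (95% interval -0.12 to 0.28). In neurospheres it read 7.21 and 6.66 against 6.68 and 5.62 FPKM, a difference of -0.15 (95% interval -0.45 to 0.14). In Rnf2 hippocampi it read 5.53 and 6.97 against 6.84 and 8.23 FPKM, a difference of 0.24 (95% interval -0.16 to 0.64). None of those 3 differences passed the test. In the cortex Rxra read 3.54 and 2.76 FPKM in controls and 4.16 and 3.55 FPKM in cKO.

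Rara read 4.03, 3.91 and 4.40 FPKM in control and 4.76, 3.84 and 4.91 FPKM in Kdm2b cKO hippocampi, with overlapping groups and a difference of 0.10 (95% interval -0.13 to 0.34). In Rnf2 hippocampi it read 2.51 and 2.53 against 2.7 and 2.61 FPKM, a difference of 0.05 (95% interval -0.30 to 0.40). In neurospheres it read 1.88 and 2.40 FPKM in controls and 2.01 and 3.57 FPKM in cKO. That difference of 0.25 (95% interval -0.32 to 0.81) did not pass the test. It was -0.06 without cKO library 2 and 0.55 without cKO library 1, when it was called at an unadjusted p of 0.021 by limma with the spread of the control pair standing for the lone cKO library. In the cortex Rara read 1.70 and 1.27 FPKM in controls and 1.55 and 1.89 FPKM in cKO.

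Rarb, which is itself a well known target of retinoic acid through the paired half-sites shown in capitals above, was highest in neurospheres. The controls read 4.33 and 4.76 FPKM and the cKO libraries read 3.19 and 3.65 FPKM. Both cKO libraries lay below both controls, at 0.753 of the control mean, but the difference of -0.33 (SE 0.12, 95% interval -0.63 to -0.02) was under the fold threshold and its adjusted p was 0.11 by limma. Among these cultures 4 of the 6 members tested had groups that did not overlap, where 66.4% of all genes did. In hippocampi Rarb read 1.10, 0.998 and 1.23 FPKM in controls and 1.08, 1.12 and 0.850 FPKM in Kdm2b cKO, with overlapping groups and a difference of -0.07 (95% interval -0.32 to 0.19). In the cortex it was low, with 5 and 21 fragments in controls and 30 and 76 in cKO, or 0.0431 and 0.188 against 0.290 and 0.772 FPKM. As for Crabp1, cKO cortex library 2 was the highest, the library with the highest sum of striatal and lateral ganglionic eminence markers, whose part was not tested. In the Rnf2 table it read at most 0.329 FPKM and was below the filter.

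**Figure D4:**
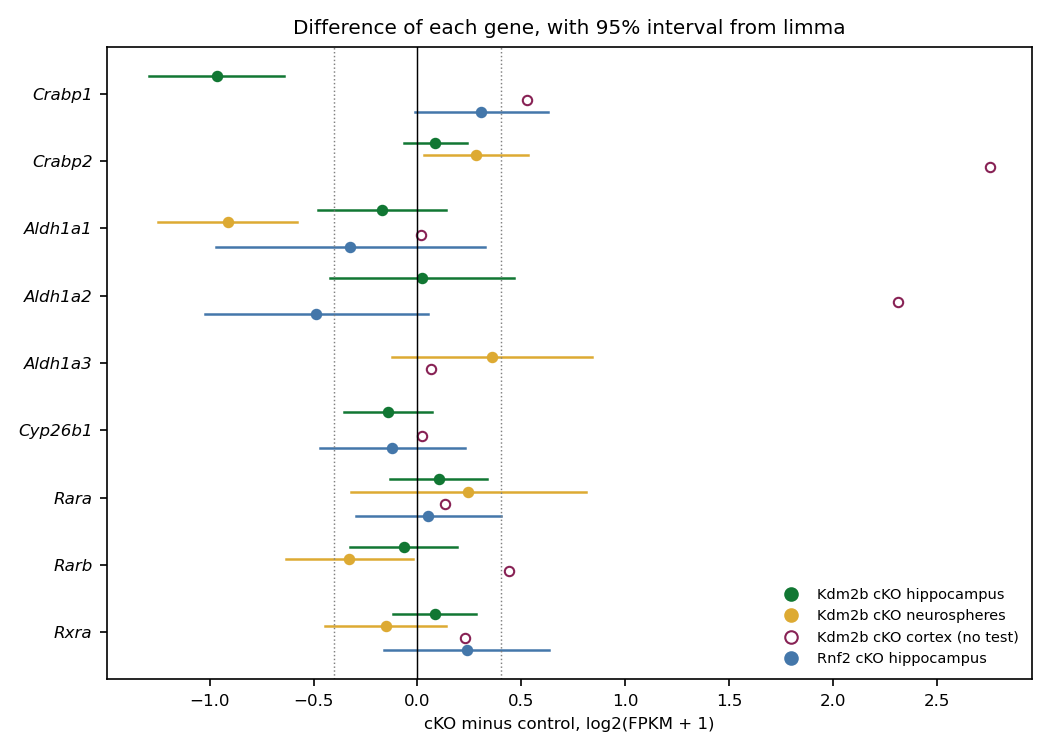
Difference between cKO and control as log2(FPKM + 1) on the horizontal axis for each gene (vertical axis) in the 4 comparisons, with 95% intervals from limma; open circles are cortical values, given without test, and genes below the filter in a tested comparison are not drawn. Dotted lines mark 0.4 in either direction: Crabp1 in hippocampi (-0.97) and the Aldh1a1 entry in neurospheres (-0.91) lie past it with intervals that exclude 0, and Crabp2 (2.76) and Aldh1a2 (2.31) lie farthest to the right in the cortex.

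No member was called in Rnf2 hippocampi by limma, where 6 passed the filter and 4.71% of all genes were called. None of the 6 had an unadjusted p under 0.05, and none was called by limma-voom on the recovered fragments. For 4 of the 6 the groups did not overlap, against 38.3% of all genes.

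The rest of the pathway was followed in a list of 34 further genes of vitamin A transport, retinol and retinaldehyde conversion, retinoic acid breakdown and receptor partners. In Kdm2b hippocampi 23 of them were tested, 1 rose and none fell, where 6.14% of all genes were called, with a median difference of 0.02 against 0.01 over all genes. The one was Ttr, which encodes a carrier of retinol and thyroid hormone and is the main product of the choroid plexus. It read 3.96, 3.64 and 14.2 FPKM in controls and 56.0, 37.9 and 5.29 FPKM in cKO. The groups overlapped, and the difference of 1.77 had an unadjusted p of 0.041 and an adjusted p of 0.19 by limma. The 10 choroid plexus markers, Ttr among them, summed to 9.24, 7.88 and 20.0 FPKM in controls and 63.0, 45.9 and 10.1 FPKM in cKO. Since Ttr makes up much of that sum, the other 9 were also summed, after the data were seen, and read 5.28, 4.25 and 5.81 FPKM in controls and 6.98, 8.07 and 4.81 FPKM in cKO, with overlapping groups. Of the 5 choroid plexus markers tested, Ttr, Otx2 and Clic6 were called higher, none at an adjusted p. Of the 10, 2 were higher in all cKO libraries, Otx2 and Clic6, and 2 were lower in all, Sostdc1 and Prlr. The part of choroid plexus in the Ttr value was not tested.

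In neurospheres 21 of the 34 genes were tested, none rose and 2 fell, a smaller share than the 24.6% of all genes called there, with a median of -0.14 against -0.01 over all genes. Both act on the step between retinol and retinaldehyde. Dhrs3, a reductase that turns retinaldehyde back into retinol, read 2.55 and 2.13 FPKM in controls and 0.591 and 0.103 FPKM in cKO, a difference of -1.33 (SE 0.23, adjusted p = 0.013 by limma). Rdh5, a retinol dehydrogenase best known from the eye, read 2.37 and 2.52 FPKM in controls and 0.557 and 1.07 FPKM in cKO, a difference of -0.94 (SE 0.19, adjusted p = 0.022 by limma). For both genes all cKO libraries lay below all controls, where groups did not overlap for 66.4% of all genes. In Rnf2 hippocampi 22 were tested and none was called by limma, also at an unadjusted p without the fold threshold.

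In cortices 20 of the 34 lay above the filter and 3 were more than 0.4 higher, where 6.21% of all genes were. The median was 0.04 against -0.01 over all genes. Of these, 2 are named here, after their values were seen. Rarg, a further receptor, read 3.16 and 2.67 FPKM in controls and 4.36 and 4.42 FPKM in cKO. In Kdm2b hippocampi it averaged 2.60 FPKM in controls and 3.74 FPKM in cKO, with overlapping groups. That difference of 0.397 lay just under the fold threshold (unadjusted p = 0.016 and adjusted p = 0.11 by limma). In neurospheres both cKO libraries lay above both controls, with a difference of 0.46 (unadjusted p = 0.052 and adjusted p = 0.13 by limma). In Rnf2 hippocampi the groups overlapped, with a difference of 0.23. Rxrg, a receptor partner, read 0.316 and 0.655 FPKM in control cortices against 0.133 and 3.66 FPKM in cKO cortices. A single cKO library thus set its difference, again the library with the highest sum of striatal and lateral ganglionic eminence markers. The control mean of Rxrg, 0.486 FPKM, was under the filter, so it passed only through that library.

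A second list held 14 genes known to respond to retinoic acid in some tissue. In Kdm2b hippocampi 9 were tested, 1 rose and 1 fell, where 6.14% of all genes were called, with a median of 0.00 against 0.01 over all genes. Ret, a receptor tyrosine kinase of developing neurons, read 1.08, 0.975 and 1.11 FPKM in controls and 1.75, 2.26 and 1.95 FPKM in cKO, a difference of 0.53 (SE 0.11, adjusted p = 0.021 by limma). Rarres2, which encodes the secreted protein chemerin, read 2.61, 2.68 and 3.2 FPKM in controls and 2.04, 1.21 and 1.94 FPKM in cKO, a difference of -0.50 (SE 0.14, unadjusted p = 0.0064 and adjusted p = 0.064 by limma). In neither gene did the groups overlap, as for 29.2% of all genes.

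In neurospheres 10 of the 14 were tested, 1 rose and 2 fell, where 24.6% of all genes were called, with a median of -0.01, the same as over all genes. Meis2, a homeobox transcription factor, rose from 19.6 and 21.8 FPKM in controls to 28.8 and 30.9 FPKM in cKO, a difference of 0.51 (SE 0.09, adjusted p = 0.015 by limma). Nr2f1, a nuclear receptor that patterns the cortex, read 58.2 and 49.96 FPKM in controls and 38.0 and 26.3 FPKM in cKO, a difference of -0.75 (SE 0.18, adjusted p = 0.035 by limma). Egr1, an immediate early gene, read 713 and 665 FPKM in controls and 390 and 415 FPKM in cKO, a difference of -0.77 (SE 0.12, adjusted p = 0.010 by limma). In cortices 7 of the 14 lay above the filter, of which 1 was more than 0.4 higher and 2 were more than 0.4 lower. Of all genes, 9.8% lay past that fold in either direction and 6.21% lay higher. These genes are given as a description and named after their values were seen. Tgm2, which encodes a transglutaminase, read 0.217 and 0.112 FPKM in controls and 0.939 and 0.812 FPKM in cKO. Its control mean of 0.164 FPKM was under the filter of 0.5 FPKM, so it passed only through the cKO libraries. The filter thus set its direction, and nothing is read from its place in the count. Nr2f1 read 54.4 and 47.7 FPKM in controls and 31.5 and 30.7 FPKM in cKO. Nr2f2, a close relative of Nr2f1, read 2.84 and 1.97 FPKM in controls and 1.65 and 1.40 FPKM in cKO. For all 3 the groups did not overlap, as for 44.8% of all genes. In Rnf2 hippocampi 9 were tested and none was called.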

How the data were processed

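The authors trimmed reads of the Kdm2b hippocampi and neurospheres, aligned them to mm10 with STAR and deposited FPKM values estimated with Cufflinks. The submitters' processing notes name Cufflinks 2.2.1. The cortical and Rnf2 tables were deposited as FPKM with a length in bases per Ensembl gene; the tool behind them is not given in the sources used here. There 100% of the products of FPKM and length are whole numbers of fragments, to within 0.05 of a fragment, after division by the product for 1 fragment. Gene positions are those of the cortical table (GRCm38).

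Groups were taken from the labels. The 9 genes, both gene lists, the marker lists and the tests were chosen with earlier results of these data known. Entries with no gene name were left out, 2861 of 27180 for hippocampi, 2059 of 26293 for neurospheres and 140 of 54672 for cortices. Fits used log2(FPKM + 1), on which changes of low genes come out too small. Each table was fitted by itself in limma 3.58.1 (R 4.3.3; linear models, moderated with a mean trend) on genes averaging 0.5 FPKM or more, with Benjamini-Hochberg adjustment over every gene fitted. An interaction term of table and genotype tested whether effects differed between comparisons. Genes named by rule are the 9, those of both lists called in a tested comparison, and the 3 most like Crabp2 over 18 libraries. Marker genes, list genes past the fold threshold in cortex and the 3 most like Crabp2 over 8 libraries were named after their values were seen. The values of 1 gene of the longer list are not reported here. The fit was tested on simulated data with 200 changed genes, and recovered 200 of them for hippocampi, 197 for neurospheres, 197 for cortices and 191 for Rnf2 hippocampi. Of the unchanged genes, between 0.649% and 2.92% were called. The changed genes were drawn from the more abundant ones and shifted by 1 on the log2 scale. Recovery of smaller changes and of low genes was not simulated. Alternatives were a pseudocount of 0.1, no filter, a filter of 1 FPKM, an equal FPKM sum in every library, scaling by median ratios, moderation with no trend, a replicate block, adjusted p values, no fold threshold, summed entries, limma-voom on recovered fragments (Rnf2) and each library left out. Intervals of fragments cover counting error only.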

Additional observations from a re-analysis of the deposited data

Results flagged for a closer look

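The effect of the cKO on the Aldh1a1 entry differed between neurospheres and hippocampi by -0.74 (limma interaction, adjusted p = 0.019), with both cKO libraries lower in neurospheres and overlapping groups in hippocampi. The effect on Crabp1 differed between Rnf2 and Kdm2b hippocampi by 1.27 (limma interaction, adjusted p = 0.024), with all 3 Kdm2b cKO libraries below and both Rnf2 cKO libraries above their controls. Crabp1 was also lower in all 3 Kdm2b cKO hippocampi. Its cortical values are a description, since cortex chose the set. Both cKO cortices lay above both controls, but cKO library 1 only narrowly (0.952 against 0.905 and 0.645 FPKM). The cortical difference of 0.53 on the log2(FPKM + 1) scale was 0.14 without cKO cortex library 2. The difference between both tissues was not tested.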

How the results depend on the processing

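The call of Crabp1 in Kdm2b hippocampi held under all 14 alternatives tried for it, with differences between -1.11 and -0.78, and that of the Aldh1a1 entry in neurospheres under all 13, between -1.25 and -0.83. In neurospheres the number of members called went from 1 to 3 with no fold threshold and to 2 with a pseudocount of 0.1, and lay between 1 and 3 when a library was left out. Rarb joined with the smaller pseudocount (-0.40) and without cKO replicate 2 (-0.40). In Rnf2 hippocampi 0 to 1 members were called when a library was left out.

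Of the 34 further genes, the number called in Kdm2b hippocampi went from 1 to 0 with adjusted p values, with no trend in the moderation and with the replicate block, to 2 with a pseudocount of 0.1 and with rescaled totals, and to 4 with no fold threshold, and lay between 0 and 2 when a library was left out. In neurospheres it went from 2 to 5 with no fold threshold and to 4 with a pseudocount of 0.1 and with rescaled totals, and lay between 2 and 7. In Rnf2 hippocampi it lay between 0 and 1.

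Interactions passed for 2 members between hippocampi and neurospheres with no filter and for 0 with rescaled totals, and for between 0 and 1 when a library was left out, as between both hippocampal tables. Signs turned when a library was left out for differences near 0. In hippocampi these were Aldh1a2 (-0.11 to 0.21) and Rxra (-0.0021 to 0.13), and in neurospheres Rara (-0.056 to 0.55). In the interactions they were Rara between hippocampi and neurospheres (-0.16 to 0.45), and between the hippocampal tables Rara (-0.14 to 0.0054) and Cyp26b1 (-0.10 to 0.14). Where leaving out a library left 1 in a group, that library was assumed to vary like the rest. The causes were not tested.

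Replicate numbers gave no clear sign of pairing in Kdm2b hippocampi, where same-numbered libraries correlated at 0.049, -0.103 and -0.086. Those correlations were -0.053 in cortices, 0.161 in Rnf2 hippocampi and -0.277 in neurospheres. With 2 libraries in a group, crossed numbers give the same value with the sign turned. Pairing in those tables can therefore be neither shown nor excluded. Beside the change given above, the replicate block left the counts of members called at 1, 1 and 0. With the neurosphere numbers crossed in the block, a choice made after the data were seen, the count was also 1. Depth is unknown for Kdm2b hippocampi and neurospheres, and the joined entries limit what those tables say of Crabp2 and Aldh1a1.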
